A study of Mus musculus with 14 samples.

Results

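Wnt antagonists and feedback inhibitors, 10 genes in all, were followed across mouse prostate cell populations: the secreted Frizzled-related proteins Sfrp1, Sfrp2 and Sfrp4, the Dickkopf proteins Dkk1, Dkk2 and Dkk3, Wnt inhibitory factor 1 (Wif1), the membrane ubiquitin ligase Rnf43, and the intracellular feedback inhibitors Axin2 and Nkd1. They were taken as a list of gene names, with no threshold on their signals. The array carried 20 probe sets for these 10 genes, out of 41031 probe sets tested, which stand for 17149 genes. All 20 passed the filter of a signal above 20 on at least 1 array. For each gene the probe set of highest mean log2 signal stands for the gene, and its other probe sets are given beside it.

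The study profiled cell populations thought to be enriched for prostate stem and progenitor cells on a whole-genome expression array, 14 arrays in all. UGE is the epithelium of the urogenital sinus, the fetal tissue from which the prostate buds, taken from C57BL/6 embryos of 16 days (3 arrays). The adult populations came from the proximal ducts of prostates of male C57BL mice (C57BL/6 in the study's methods) of 6 to 8 weeks, sorted by flow cytometry on surface Sca-1 into Sca-1Hi cells with the brightest staining (3 arrays), Sca-1Lo cells with medium to low staining (4 arrays) and Sca-1Neg cells without it (4 arrays). Sca-1Neg cells, regarded by the study as the most differentiated, served as the common reference, so comparisons against them share those arrays. The sort used Sca-1 alone and the UGE was not sorted, so each population is a mixture. No animal carried a mutation or received a treatment that the labels name.

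Wnt ligands bind Frizzled receptors and the co-receptors Lrp5 and Lrp6, which stabilises β-catenin and lets it act with TCF/LEF factors on target genes. Sfrp proteins and Wif1 bind the ligands outside the cell, and Dkk1 and Dkk2 bind the Lrp co-receptors. Axin2, Nkd1 and Rnf43 are themselves switched on by β-catenin in many tissues and close a negative feedback loop: Axin2 scaffolds the complex that degrades β-catenin, Nkd1 binds Dishevelled, and Rnf43 removes Frizzled receptors from the cell surface. In prostate development Wnt signals and their secreted antagonists are exchanged between epithelium and the surrounding mesenchyme.

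Epithelial markers had signal in every population, with markers of other cell types beside them. Summed over 7 general epithelial markers, signal was 30715 to 43184 in UGE, 22749 to 29195 in Sca-1Hi and 17529 to 28345 in Sca-1Lo. In Sca-1Neg replicates 1 to 4 it was 13067, 7983, 32511 and 11967. The 5 secretory luminal markers measured summed to 751 to 1981 in UGE, against 27637 to 62922 over the adult arrays. Fibroblast and mesenchyme markers (13 of 14 listed were measured) summed to 6804 to 21897 in UGE, 14733 to 64556 in Sca-1Hi, 13444 to 80843 in Sca-1Lo and 21831 to 68036 in Sca-1Neg, and UGE replicate 1 had the highest of the UGE sums. Basal epithelial markers (7) summed to 21845 to 28429 in UGE, 18062 to 27965 in Sca-1Hi, 8857 to 27929 in Sca-1Lo and 1863 to 8123 in Sca-1Neg. Smooth muscle markers (8) summed to 516 to 2511 in UGE, 7897 to 24806 in Sca-1Hi, 10803 to 23111 in Sca-1Lo and 24957 to 72613 in Sca-1Neg, and all 8 were called lower in UGE than in Sca-1Neg. In Sca-1Neg replicates 1, 2 and 4 these sums, of 36278.5, 27679 and 72613, were above the general epithelial sums. In replicate 3 the smooth muscle sum was the lower one. Sums over different genes do not give shares of cells. Leukocyte markers (11 of 12 listed) summed to 553 to 756 in UGE, 474 to 631 in Sca-1Hi, 911 to 2505 in Sca-1Lo and 1349 to 26686 in Sca-1Neg. The 8 endothelial markers summed to 171 to 633 in UGE, 8644 to 15504 in Sca-1Hi, 4674 to 10430 in Sca-1Lo and 1238 to 4050 in Sca-1Neg. Nerve and glia markers (5 of 7 listed) summed to 229 to 3630 in UGE and 141 to 13510 in Sca-1Neg. In Sca-1Hi they summed to 209 to 288 and in Sca-1Lo to 191 to 303. UGE replicate 1 and Sca-1Neg replicate 4 held the highest of these sums in their groups. Median signals lay between 80.7 and 99.5 on all arrays. The log2 ratio of 3' to 5' Gapdh signal, which is larger where RNA is more degraded or amplification is shorter, was 1.83 to 2.38 in UGE, 3.07 to 3.48 in Sca-1Hi, 1.98 to 3.22 in Sca-1Lo and 1.66 to 2.75 in Sca-1Neg. The part of these differences in the results that follow was not tested. In such mixtures, fewer cells of a type and less RNA per cell cannot be told apart.

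By their representative probe sets, Sfrp1, Dkk1 and Rnf43 were higher in UGE than in Sca-1Neg cells, by 9.06-fold, 2.56-fold and 5.20-fold. None of the 10 was lower by these probe sets, but 2 other Nkd1 probe sets and the mean of all Nkd1 probe sets were called lower, as given below. A gene was called when its adjusted p in limma was under 0.05 and its change over 1.75-fold, and 14.9% of all 41031 probe sets were called higher in this comparison and 10.9% lower. The median log2 difference over the 10 genes was 0.89, beside 0.08 over all probe sets tested. Over all 17149 genes, each taken by 1 probe set like the members, 16.3% were called higher and 12.9% lower, with a median of 0.07. Against Sca-1Hi cells the same 3 genes were called higher in UGE and Wif1 was called lower (background 13.3% higher and 12.1% lower; median 0.76, beside -0.09). Against Sca-1Lo cells Sfrp1 and Rnf43 were called higher in UGE and Wif1 lower (background 11.4% higher and 10.5% lower; median 0.52, beside -0.04). By the arrays alone, 3 members lay above Sca-1Neg on every UGE array (18.9% of all probe sets did) and 1 below (14%), 5 lay above Sca-1Hi (24%) and 1 below (23.8%), and 3 lay above Sca-1Lo (18.8%) and 1 below (17.2%).

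Among the adult populations no representative probe set of the 10 genes was called. In Sca-1Hi against Sca-1Neg cells the count was 0 of 10 by limma and by the methods' t-test, with 0 at an unadjusted p under 0.05, where 11.9% of all probe sets were called and 28.5% had such a p. In Sca-1Lo against Sca-1Neg cells it was 0 by either test, with 2 genes (Dkk1 and Dkk3) at an unadjusted p under 0.05, where 1.9% were called and 13.7% had such a p. In Sca-1Hi against Sca-1Lo cells it was 0 by either test, with 0 at an unadjusted p under 0.05, where 0.0658% were called and 9.82% had such a p. The percentages called are those of limma. By the methods' t-test 308, 2 and 0 of all probe sets were called in these comparisons, in this order. With so few calls anywhere, 0 of 10 by that test could not tell these genes from the rest. The same holds for limma in Sca-1Hi against Sca-1Lo cells, at 0.0658%. The medians over the 10 genes were 0.16, 0.36 and -0.35 in these comparisons, beside 0.12, 0.11 and 0.01 over all probe sets. Over all genes, each taken by 1 probe set like the members, the medians were 0.03, 0.08 and -0.04. Calls for Nkd1 depended on the probe set. Wif1 was called in Sca-1Lo against Sca-1Neg once low or high study numbers of the adult arrays were taken as a block. It was called in Sca-1Hi against Sca-1Neg with replicate labels as a block. These results are given below.

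**Figure D1:**
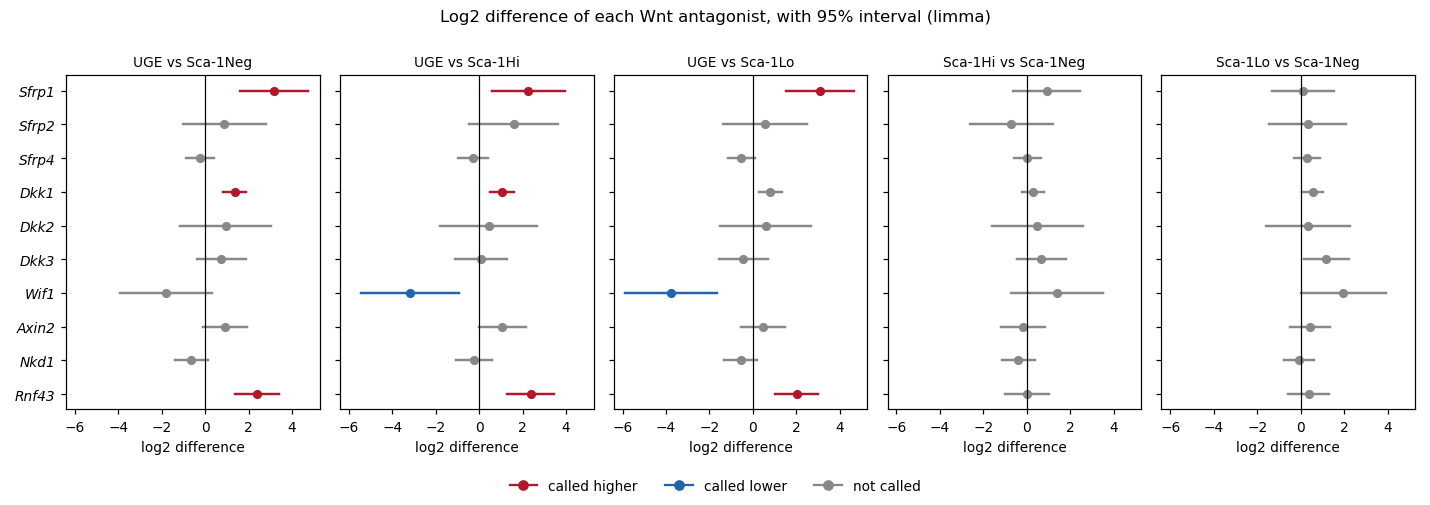
Log2 difference of the representative probe set of each gene (points) with its 95% interval (lines) from limma, in 5 of the 6 comparisons between populations; positive values are higher in the population named first. Sfrp1 and Rnf43 lie to the right of 0 in all 3 UGE comparisons and Wif1 to the left, while in the adult comparisons no gene is coloured as called.

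Sfrp1, which binds Wnt ligands through a Frizzled-like domain, was the member with the largest difference between UGE and Sca-1Neg cells. Its signal was 1296, 682 and 889 in UGE replicates 1 to 3. It was 152, 114 and 402 in Sca-1Hi, 70.5, 61.4, 95.9 and 348 in Sca-1Lo, and 47.9, 119.9, 52.2 and 359 in Sca-1Neg. Every UGE array lay above every adult array, and within each adult population 1 array (Sca-1Hi replicate 3, Sca-1Lo replicate 4 and Sca-1Neg replicate 4) stood well above the others. The log2 difference was 3.18 ± 0.73 (SE) in UGE against Sca-1Neg (adjusted p = 0.0055), 3.07 ± 0.73 against Sca-1Lo (adjusted p = 0.00768) and 2.27 ± 0.78 against Sca-1Hi (adjusted p = 0.0449). The call against Sca-1Hi was lost, with adjusted p of 0.053 to 0.157, when any of UGE replicates 1 to 3, Sca-1Hi replicates 1 and 2, Sca-1Lo replicates 1 and 3 or Sca-1Neg replicate 2 was left out. Without UGE replicate 1, which had the most fibroblast and nerve marker signal of UGE, the difference from Sca-1Neg was 2.93 (adjusted p = 0.0229). By the methods' t-test the calls against Sca-1Neg and Sca-1Hi were lost and that against Sca-1Lo held. The call against Sca-1Hi was also lost with no filter, with quantile normalization and with the mean of all probe sets.

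The other Sfrp1 probe sets did not all give that picture. Probe set 1448395_at gave 261, 97.6 and 136 in UGE, against 28.3, 35.2, 35.8 and 67.8 in Sca-1Neg, and was called higher in UGE against Sca-1Neg (log2 difference 1.94 ± 0.45, adjusted p = 0.00603) and against Sca-1Lo (1.57 ± 0.45, adjusted p = 0.022) but not against Sca-1Hi (1.30 ± 0.48, adjusted p = 0.0618). Probe set 1460187_at gave 77.9, 33.4 and 30.9 in UGE, against at most 26.7 on any adult array, and was called in the same comparisons against Sca-1Neg and Sca-1Lo. Probe set 1416594_at gave 487 in UGE replicate 1 but 23.7 and 26.3 in the other UGE arrays, below the 30.5 to 89.4 of the adult arrays, and was called in no comparison. Probe set 1438620_x_at stayed between 23.9 and 50.3 on all arrays and was not called. So 3 of the 5 Sfrp1 probe sets were called higher in UGE than in Sca-1Neg cells, and 1 of the other 2 split the UGE arrays.

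Sfrp2, the closest relative of Sfrp1 in this set, was even in UGE and very uneven in the adult. Its signal was 989, 875 and 958 in UGE. It was 98.1, 439 and 706 in Sca-1Hi, 229, 199, 1579 and 2251 in Sca-1Lo, and 469, 329, 287 and 1520.0 in Sca-1Neg. Every UGE array lay above every Sca-1Hi array, but the UGE arrays fell inside the range of Sca-1Lo and of Sca-1Neg. No difference was called: UGE against Sca-1Neg gave 0.88 ± 0.89 on the log2 scale (95% interval -1.04 to 2.81, adjusted p = 0.496) and UGE against Sca-1Hi 1.59 ± 0.96 (-0.47 to 3.64, adjusted p = 0.244).

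Sfrp4 varied least of the 10 over the arrays, by 2.33-fold between the lowest and the highest. Its signal was 140.3, 76.3 and 83.9 in UGE, 112, 108 and 133 in Sca-1Hi, 127, 171, 133 and 130.2 in Sca-1Lo, and 147, 152, 73.3 and 105 in Sca-1Neg. The groups overlapped in every comparison and none was called. The difference from Sca-1Neg was -0.25 ± 0.30 in UGE, 0.03 ± 0.30 in Sca-1Hi and 0.28 ± 0.28 in Sca-1Lo on the log2 scale.

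**Figure D2:**
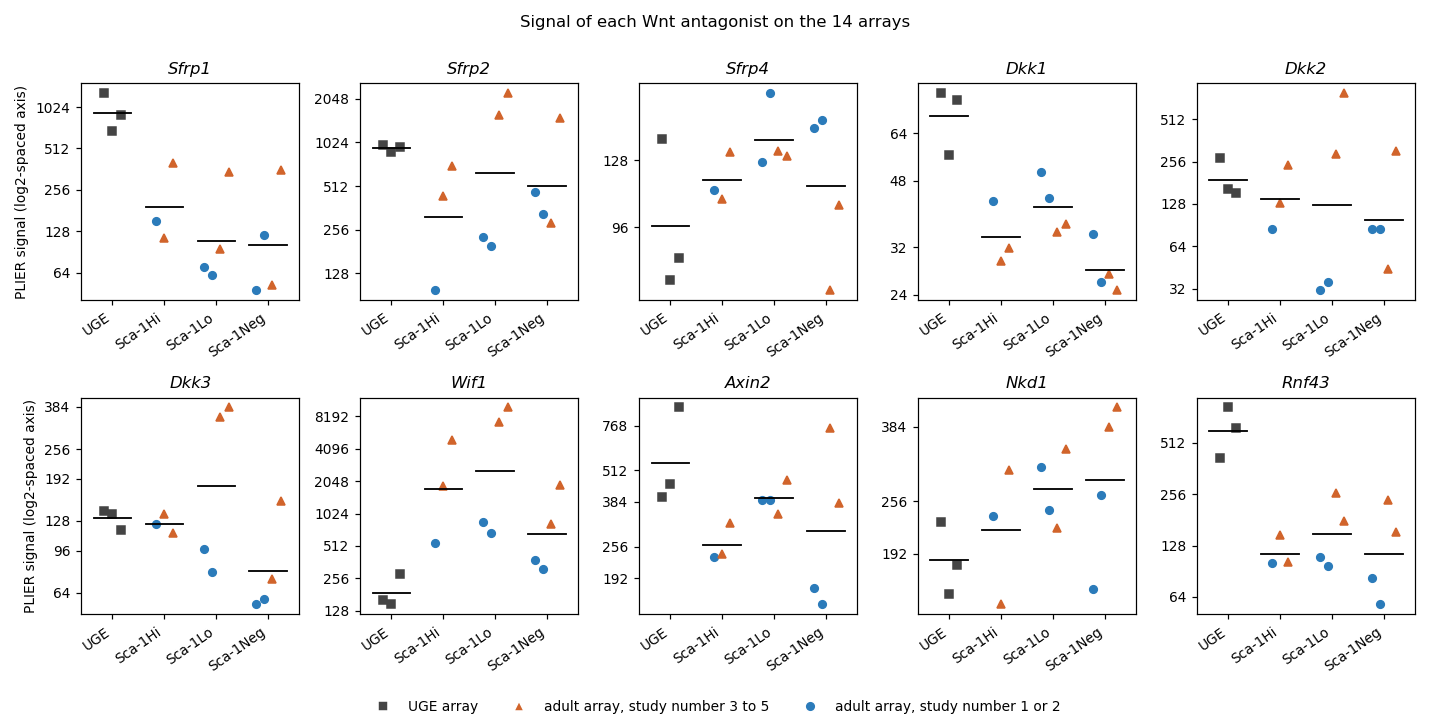
PLIER signal (log2-spaced axis, different in each panel) of the representative probe set of each gene on each array, by population; black lines are geometric means, squares are UGE arrays, and triangles and circles are adult arrays with study numbers 3 to 5 and 1 or 2. The UGE squares of Sfrp1, Dkk1 and Rnf43 lie above all adult points and those of Wif1 below them; in Wif1 and Rnf43 the triangles lie above the circles within every adult population.

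Dkk1, a secreted inhibitor that blocks Lrp co-receptors and a known β-catenin target in several tissues, was low on all arrays but well separated. Its promoter is shown because it held the most matches among the members' promoters to the core motif of TCF/LEF factors (CTTTGA or CTTTGT, searched on both strands, overlaps allowed), and that of Dkk2 because it was the only other one with a match. Promoters of 300 bases, from 250 before to 50 after the start, were found in RefSeq (GRCm38.p6) for Sfrp2, Dkk1, Dkk2, Wif1, Axin2, Rnf43 and Nkd1. That of Dkk1 (chr19:30549447-30549746, minus strand) held 3 matches, whose first bases lay at -174, -117 and -98 from the start, and that of Dkk2 (chr3:132085042-132085341, plus strand) held 1, at -80. The motif occurs in 31.2% of all 32851 promoters of this length. Matches are in capitals below, each printed 5′ to 3′.
Dkk1: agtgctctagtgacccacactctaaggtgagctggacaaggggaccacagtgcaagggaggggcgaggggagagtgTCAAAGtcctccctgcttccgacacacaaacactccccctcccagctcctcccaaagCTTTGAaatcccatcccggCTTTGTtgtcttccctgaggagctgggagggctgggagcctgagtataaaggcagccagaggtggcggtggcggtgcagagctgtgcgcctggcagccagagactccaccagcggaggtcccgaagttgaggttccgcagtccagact
Dkk2: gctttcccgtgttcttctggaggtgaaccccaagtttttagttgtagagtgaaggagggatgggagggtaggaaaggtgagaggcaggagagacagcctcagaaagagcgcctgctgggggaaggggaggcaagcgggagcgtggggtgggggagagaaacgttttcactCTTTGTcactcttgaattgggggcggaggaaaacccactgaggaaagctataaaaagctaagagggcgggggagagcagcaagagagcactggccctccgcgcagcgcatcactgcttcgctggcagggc

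The signal of Dkk1 was 81.8, 56.2 and 78.5 in UGE. It was 42.3, 29.4 and 31.8 in Sca-1Hi, 50.5, 43.1, 35.2 and 36.9 in Sca-1Lo, and 34.6, 25.9, 27.2 and 24.7 in Sca-1Neg. Every UGE array lay above every adult array, and every Sca-1Lo array above every Sca-1Neg array, as for 4.35% of all probe sets. Dkk1 was called higher in UGE than in Sca-1Neg cells (1.35 ± 0.24 on the log2 scale, adjusted p = 0.0011) and than in Sca-1Hi cells (1.06 ± 0.26, adjusted p = 0.0083). Against Sca-1Lo the adjusted p was 0.0296 but the change, 1.74-fold, was just under the fold minimum, and it passed without UGE replicate 2 or without Sca-1Lo replicate 1 or 2. Sca-1Lo exceeded Sca-1Neg by 0.56 ± 0.22 (adjusted p = 0.273). The second probe set, 1458232_at, gave 38.1, 12.9 and 22.5 in UGE and at most 5.16 on any adult array; it was called higher in UGE against each adult population, but with all adult signals and 1 UGE signal under 20 no fold is given.

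Dkk2, which binds the same co-receptors, and Dkk3, a divergent family member, behaved unlike Dkk1. Dkk2 had signals of 271, 165 and 153 in UGE, 85.1, 131 and 242 in Sca-1Hi, 31.2, 35.8, 290.0 and 791 in Sca-1Lo, and 84.7, 85.1, 43.8 and 304 in Sca-1Neg. The Sca-1Lo arrays alone spanned 25.3-fold, and no comparison was called (UGE against Sca-1Neg 0.94 ± 0.97 on the log2 scale, adjusted p = 0.506). Dkk3 had signals of 141, 136 and 117 in UGE, 124, 136 and 114 in Sca-1Hi, 97.2, 78.5, 350.1 and 382 in Sca-1Lo, and 57.1, 60.2, 73.0 and 155 in Sca-1Neg. UGE and Sca-1Hi were nearly level, with a log2 difference of 0.08 ± 0.56 (95% interval -1.13 to 1.28; -0.09 with arrays centred on their 75th percentile). Sca-1Lo exceeded Sca-1Neg by 1.18 ± 0.49 (adjusted p = 0.288), and its second probe set, 1417312_at, by 1.39 ± 0.46 (adjusted p = 0.165).

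Wif1, a secreted protein that binds Wnt ligands directly, ran the other way: among the representative probe sets it was the only one called lower in UGE. Its signal was 163, 147 and 279.9 in UGE. It was 550.3, 1849 and 4969.6 in Sca-1Hi, 859.5, 679, 7288 and 9899.5 in Sca-1Lo, and 380.1, 313, 820.4 and 1899 in Sca-1Neg. Every UGE array lay below every adult array, and its 67.6-fold span over the 14 arrays was the widest of the representative probe sets. UGE was lower than Sca-1Lo by a log2 difference of -3.76 ± 0.98 (13.5-fold, adjusted p = 0.0138) and than Sca-1Hi by -3.19 ± 1.05 (9.11-fold, adjusted p = 0.0386). The difference from Sca-1Neg, -1.80 ± 0.98 (adjusted p = 0.193), was not called. By the methods' t-test the calls against Sca-1Lo and Sca-1Hi were both lost. The call against Sca-1Hi was lost, with adjusted p of 0.0666 to 0.152, without any of UGE replicates 1 to 3 or Sca-1Hi replicates 2 and 3, and that against Sca-1Lo without UGE replicate 2 (adjusted p = 0.0549). On the 4 study numbers that a Sca-1Lo and a Sca-1Neg array share, Wif1 was higher in Sca-1Lo each time, at 859.5 against 380.1, 679 against 313, 7288 against 820.4 and 9899.5 against 1899. How many of all probe sets were higher in Sca-1Lo each time was not counted. Fibroblast markers also summed lower in UGE than in Sca-1Hi and Sca-1Lo in 2 of the 3 UGE arrays. Their part in the Wif1 difference was not tested.

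Rnf43, the ubiquitin ligase that clears Frizzled receptors, was called higher in UGE against all 3 adult populations. Its signal was 415, 823 and 622 in UGE. It was 101, 147 and 102 in Sca-1Hi, 109.9, 96.7, 259 and 178 in Sca-1Lo, and 82.9, 57.8, 237 and 153 in Sca-1Neg. Every UGE array lay above every adult array. The log2 difference was 2.38 ± 0.47 in UGE against Sca-1Neg (adjusted p = 0.00216), 2.38 ± 0.50 against Sca-1Hi (adjusted p = 0.00345) and 2.01 ± 0.47 against Sca-1Lo (adjusted p = 0.00725), and leaving out any array lost none of these 3 calls. By the methods' t-test the call against Sca-1Neg was lost (adjusted p = 0.0639) and the other 2 held. Its adult populations differed from each other by at most 0.37 on the log2 scale, with none called.

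Axin2, the feedback scaffold most often read as a measure of β-catenin activity, was measured on every array and called in no comparison. Its signal was 402, 453 and 905 in UGE, 233, 240.2 and 316 in Sca-1Hi, 389, 390.0, 345 and 471 in Sca-1Lo, and 176, 151, 752 and 379 in Sca-1Neg. Every UGE array and every Sca-1Lo array lay above every Sca-1Hi array (6.11% of all probe sets had every Sca-1Hi array below every Sca-1Lo array), but Sca-1Neg spread over 4.97-fold. UGE differed from Sca-1Hi by 1.07 ± 0.50 (adjusted p = 0.134) and from Sca-1Neg by 0.89 ± 0.47 (adjusted p = 0.177) on the log2 scale. Without Sca-1Neg replicate 3, which held the 752, these became 1.07 (adjusted p = 0.0481) and 1.34 (adjusted p = 0.0171) and were called. Its second probe set, 1421341_at, lay between 10.5 and 51.1 and was not called.

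Nkd1, which restrains signalling at Dishevelled, gave a different answer on different probe sets. The representative one, 1440446_at, had signals of 228, 154 and 181 in UGE, 237, 146 and 303 in Sca-1Hi, 308, 244, 221 and 339 in Sca-1Lo, and 159, 265, 383 and 426 in Sca-1Neg, and no comparison was called. Probe set 1429506_at had 256, 90.0 and 251 in UGE, 80.7, 55.0 and 193 in Sca-1Hi, 183, 160.0, 166 and 254 in Sca-1Lo, and 669, 503, 279 and 1359 in Sca-1Neg. There every array of the other populations lay below every Sca-1Neg array, as 7.84% of all probe sets did in Sca-1Hi and 2.17% in Sca-1Lo. It was called lower in Sca-1Hi (-2.65 ± 0.54 on the log2 scale, adjusted p = 0.00763, where 4.28% of all probe sets were called lower) and in UGE (-1.73 ± 0.54, adjusted p = 0.03) than in Sca-1Neg, and Sca-1Lo differed by -1.67 ± 0.50 (adjusted p = 0.118). Probe set 1417278_a_at was called in the same direction in Sca-1Hi (-2.52 ± 0.57, adjusted p = 0.0126) and in UGE (-2.07 ± 0.57, adjusted p = 0.0155). Probe set 1429507_at lay lower in UGE (-1.02 ± 0.41, adjusted p = 0.0816) and Sca-1Hi (-1.17 ± 0.41, adjusted p = 0.0807) without a call. With the mean of all 4 probe sets, Nkd1 was called lower in Sca-1Hi (-1.69, adjusted p = 0.0161) and in UGE (-1.37, adjusted p = 0.0191) than in Sca-1Neg.

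**Figure D3:**
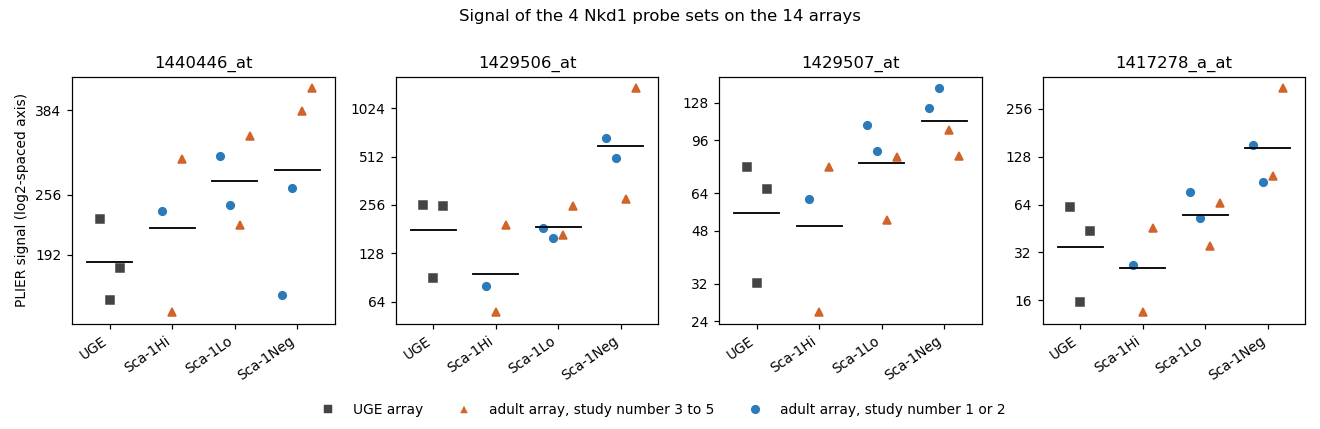
PLIER signal (log2-spaced axis, different in each panel) of the 4 Nkd1 probe sets on each array, by population; black lines are geometric means, squares are UGE arrays, and triangles and circles are adult arrays with study numbers 3 to 5 and 1 or 2. In 1429506_at and 1417278_a_at every Sca-1Neg array lies above every other array, while in the representative 1440446_at the populations overlap.

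Within the adult populations the arrays split on another line. The study's supplementary column names give each adult sample a number, from 1 to 5, whose meaning is not stated; 5 arrays have numbers 1 or 2 (Sca-1Hi replicate 1, Sca-1Lo replicates 1 and 2, Sca-1Neg replicates 1 and 2) and 6 have numbers 3 to 5. A Sca-1Lo and a Sca-1Neg array share each of the numbers 1, 2, 4 and 5, and a Sca-1Hi array shares 1 and 4. The cut between low and high numbers is not given by the labels, and their comparison was added after seeing the data. With population as a term in limma, Wif1, Sfrp2, Dkk3 and Rnf43 were called higher on the arrays with high numbers and none of the 10 was lower, where 12.7% of all probe sets were called higher and 5.6% lower. Wif1 was 820 to 9899 (median 3434) on arrays with high numbers and 313 to 860 (median 550.3) on those with low numbers, a log2 difference of 2.61 ± 0.36 (adjusted p = 0.00254), with the high-number arrays above the low-number arrays in each of the 3 populations. Sfrp2 was 287 to 2251 (median 1113) on high and 98.1 to 469 (median 229) on low numbers (2.09 ± 0.49, adjusted p = 0.0124). Rnf43 was 102 to 259 on high and 57.8 to 109.9 on low numbers (1.01 ± 0.24, adjusted p = 0.0133), again apart in each of the 3 populations. How many of all probe sets were apart in all 3 populations was not counted, and each side held few arrays. Dkk3 differed by 1.10 ± 0.32 (adjusted p = 0.0289), and Dkk2 by 1.87 ± 0.65 without a call (adjusted p = 0.0531). Without the Sca-1Lo arrays Wif1 alone was called, without Sca-1Hi Sfrp2 lost its call, and without Sca-1Neg Rnf43 and Dkk3 lost theirs and Dkk2 gained one (2.73, adjusted p = 0.0209).

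Markers of some cell types split the same arrays, and those of others did not. Over all genes 11.3% were called higher on the high-number arrays and 5.43% lower. Of 13 fibroblast markers measured, 8 were called higher on the high-number arrays, among them Pdgfra (2.77 ± 0.52 on the log2 scale), Lum (2.73 ± 0.62), Col1a1 (2.09 ± 0.62) and Postn (2.07 ± 0.67), and none lower, with a median of 1.76 beside 0.18 over all genes. Basal epithelial markers were called higher in 7 of 7 (median 1.21) and leukocyte markers lower in 6 of 11 (median -1.50). Of 8 endothelial markers 2 were called higher, and of 7 general epithelial markers 1. None of 8 smooth muscle, 5 secretory luminal and 5 nerve and glia markers was called. The Gapdh ratio was also higher on high numbers, at 3.10 and 3.22 against 2.54 and 1.98 in Sca-1Lo and 2.75 and 2.69 against 1.66 and 1.84 in Sca-1Neg, but not throughout Sca-1Hi (3.07 and 3.48 against 3.08). The summed fibroblast signal was 26116 to 80843 on arrays with high numbers and 13444 to 24505 on arrays with low numbers. The arrays with the most Wif1, Sca-1Lo replicates 3 and 4, had fibroblast sums of 61442 and 80843. Sca-1Neg replicate 4 had a sum of 68036 with a Wif1 signal of 1899, below the 4970 of Sca-1Hi replicate 3 at 64556. The part of these cells and of RNA quality in the antagonists' signals was not tested, and the study number and the fibroblast content cannot be told apart on these arrays.

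**Figure D4:**
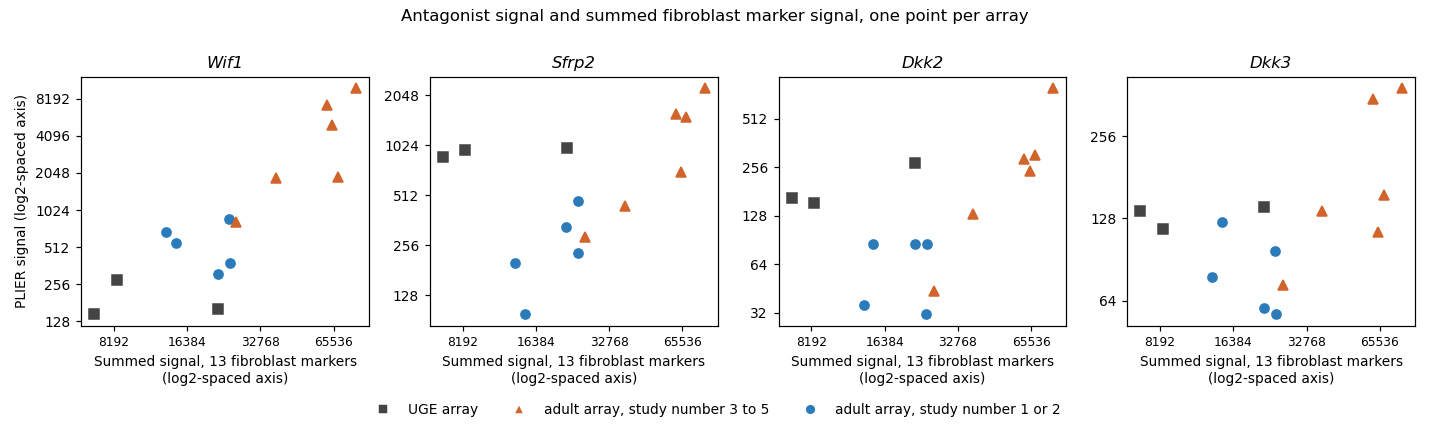
PLIER signal of Wif1, Sfrp2, Dkk2 and Dkk3 (log2-spaced axis) against the summed signal of 13 fibroblast and mesenchyme markers (log2-spaced axis), 1 point per array; squares are UGE arrays, and triangles and circles are adult arrays with study numbers 3 to 5 and 1 or 2. All adult arrays with high numbers lie to the right of those with low numbers, from 26116 upward against at most 24505, and the UGE arrays, at sums of at most 21897, hold 875 to 989 of Sfrp2, against at most 469 on the adult arrays with low numbers.

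These numbers bear on the fetal comparisons too, since UGE arrays have none. Set against only the adult arrays with low numbers, 7 members were called higher in UGE than in Sca-1Neg cells (Sfrp1, Sfrp2, Dkk1, Dkk2, Dkk3, Axin2 and Rnf43). Set against only those with high numbers, Rnf43 and Dkk1 kept their call against Sca-1Neg (1.65, adjusted p = 0.0182, and 1.46, adjusted p = 0.00577), Sfrp1 did not (2.75, adjusted p = 0.066), and Wif1 was called lower in UGE (-2.73, adjusted p = 0.00941). Sfrp1 also lost its calls there against Sca-1Hi (2.11, adjusted p = 0.119) and Sca-1Lo (2.34, adjusted p = 0.114), and Dkk3 was called lower in UGE than in Sca-1Lo (-1.48, adjusted p = 0.0184). With low numbers Sca-1Hi is 1 array, taken to vary like the other groups, and against it Dkk1 lost its call (0.75, adjusted p = 0.186). Wif1 was called lower in UGE than in Sca-1Lo in either set (-2.02, adjusted p = 0.00354, with low numbers and -5.50, adjusted p = 0.000368, with high numbers), and lower than in Sca-1Hi with high numbers (-4.01, adjusted p = 0.00146) and against the 1 Sca-1Hi array with a low number (-1.55, adjusted p = 0.0414). Within the adult arrays, with low or high numbers as a block, Wif1 was called higher in Sca-1Lo than in Sca-1Neg cells (1.96, adjusted p = 0.0277).

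The antagonists fell into loose groups by their pattern over the 14 arrays, given as Pearson correlations of log2 signal without a test, over points that include 4 populations. Sfrp2 and Dkk2 ran most alike (r = 0.86), followed by Dkk2 and Dkk3 (0.78), Axin2 and Rnf43 (0.72) and Sfrp2 and Dkk3 (0.68). Sfrp4 ran against Rnf43 (-0.66) and Axin2 (-0.62), and Wif1 against Dkk1 (-0.52). Among 13289 other genes, the pattern most like that of Wif1 belonged to Anxa5 (0.983), Dner (0.959) and Scara5 (0.959). For Sfrp2 these were Bicc1 (0.969), Rab34 (0.965) and Gprasp2 (0.962), for Dkk2 Nav1 (0.947), the collagen gene Col5a1 (0.936) and Gulp1 (0.921), and for Dkk3 Pheta2 (0.942), Eps15 (0.923) and Tcf4 (0.903). For Sfrp1 they were Npas3 (0.926), Plin2 (0.925) and the fibronectin gene Fn1 (0.921), and for Rnf43 Eed (0.983), Bzw2 (0.982) and Zfp141 (0.98). For Axin2 they were Maged1 (0.895), 1700066M21Rik (0.892) and Erlin2 (0.887), for Sfrp4 Pskh1 (0.908), 4933412E12Rik (0.895) and Krt72 (0.887), and for Nkd1 Arhgap26 (0.848), Btd (0.847) and Atp8a1 (0.843). Dkk1, whose mean did not reach 100 in any population, was not compared in this way.

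Other Wnt antagonists were called in both directions in the fetal epithelium. Of 27 other Wnt antagonists measured, 11 were called higher and 6 lower in UGE than in Sca-1Neg cells, where 16.3% of all 17149 genes were called higher and 12.9% lower, and the median log2 difference was 0.97, beside 0.07 over all genes. Higher was Tpbg (2.55 ± 0.44), a membrane glycoprotein that inhibits Wnt signalling, and so was Znrf3 (1.65 ± 0.31), the ubiquitin ligase related to Rnf43, which was named after its values were seen. Lower were Sfrp5 (-2.96 ± 0.49), a further Frizzled-related protein, and the secreted protein Sostdc1 (-2.30 ± 0.76). Dkkl1, a relative of the Dickkopf proteins, was also called lower, at 9.81, 9.97 and 16.5 in UGE against 28.8 to 221 in Sca-1Neg, and with UGE signals under 20 no difference is given. Sfrp5 was also lower in Sca-1Hi (-3.31 ± 0.49) and Sca-1Lo (-3.18 ± 0.46) than in Sca-1Neg. Frzb, the Frizzled-related protein also named Sfrp3, was called higher in UGE, at 41.7 to 74.5, than in Sca-1Hi, at 3.51 to 4.80, and Sca-1Lo, at 0.973 to 7.09, signals under 20 for which no difference is given. Against Sca-1Neg cells Frzb, at 12.5, 40.8, 5.28 and 39.8 there, was not called. Sfrp5 was not called in UGE against Sca-1Hi or Sca-1Lo. Thus, of the Frizzled-related family, Sfrp1 was called higher and Sfrp5 lower in UGE against Sca-1Neg, and the Frzb calls were against the other adult populations.

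Ligands and receptors had calls in both directions and the transduction genes in 1. Of 18 Wnt ligands, 6 were higher and 2 lower in UGE than in Sca-1Neg cells, among them Wnt6 (3.81 ± 0.35) and Wnt4 (2.77 ± 0.49), with Wnt5b (-2.29 ± 0.48) lower (median 0.51, beside 0.07 over all genes). The other ligand called lower was Wnt7a (-1.58 ± 0.40), which the study lists as increased in UGE. Here each listed gene was taken by its probe set of highest mean only, and the reason for this conflict was not tested. Wnt10a was called higher in UGE (281 to 500.0), Sca-1Hi (52.7 to 107) and Sca-1Lo (20.0 to 51.4) than in Sca-1Neg, where its signals of 7.34 to 12 were all under 20 and no difference is given. Of 18 receptors and co-receptors, 4 were higher and 2 lower, near the 16.3% and 12.9% of all genes, with a median of 0.06 beside 0.07, and with the Frizzled receptors Fzd6 (3.18 ± 0.34) and Fzd3 (2.73 ± 0.31) and the Wnt5a receptor Ror2 (2.68 ± 0.52) higher and the R-spondin receptor Lgr6 (-1.88 ± 0.60) lower. None of the 3 R-spondins measured, secreted proteins that hold Rnf43 and Znrf3 in check, was called. Of 16 transduction genes 7 were higher and 0 lower (median 0.99), led by Bcl9 (2.01 ± 0.28), a β-catenin co-activator, and with Ctnnb1, which encodes β-catenin (1.08 ± 0.29), among them. Of 13 genes known as Wnt targets in other tissues (median 0.37) 4 were higher, led by Birc5 (3.26 ± 0.48) and Ephb3 (2.99 ± 0.44), and 2 were lower, led by Cd44 (-2.29 ± 0.38).

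**Figure D5:**
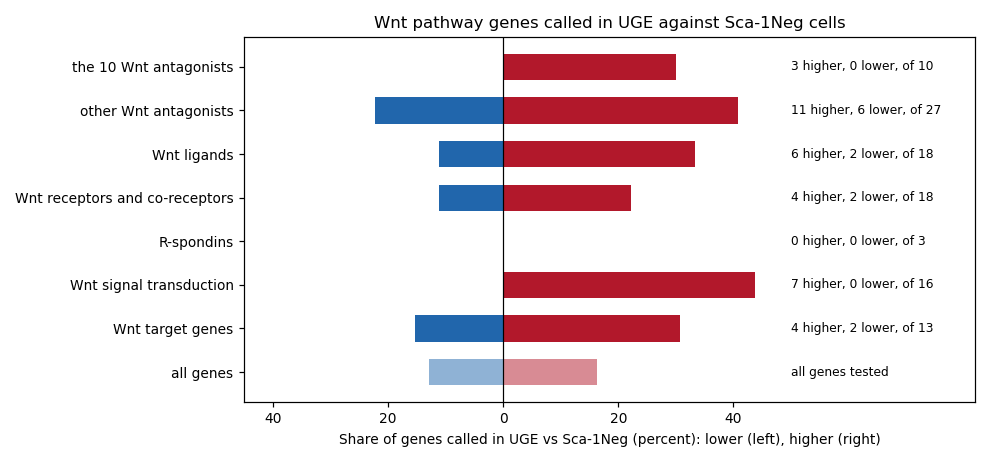
Percent of the measured genes of each Wnt pathway list that were called higher (bars to the right) or lower (bars to the left) in UGE than in Sca-1Neg cells, with the counts beside them and the same shares over all genes tested at the bottom (16.3% higher, 12.9% lower). By their representative probe sets the 10 antagonists have 3 genes to the right and 0 to the left, while the 27 other antagonists extend on both sides.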

How the data were processed

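RNA of sorted or dissected cells was labelled in 2 cycles and hybridised to Affymetrix whole-genome mouse arrays. The authors deposited PLIER signal intensity values on a linear scale, 1 per probe set and array; the submitters' notes also name MAS5, whose detection calls were not used here. Per the methods, PLIER models all arrays jointly and its values are normalized levels; no further scaling between arrays and no genome build are given in the sources used here. Probe sets were named from the platform table: 34945 had 1 gene, 932 several (not used for gene names) and 9160 none, with 64 array controls left out.

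Intensities were log2-transformed as they stood, and the 41031 probe sets that exceeded 20 somewhere among the arrays were fitted with limma 3.58.1 (R 4.3.3) as 4 group means over all 14 arrays, with no replicate block and Benjamini-Hochberg adjustment over all of them. A change was called at an adjusted p under 0.05 and over 1.75-fold. limma takes the place of the study's t-test, which was run as an alternative with adjustment over all 41031 probe sets. The methods describe filters on variability and significance before their t-test, so its calls here need not match the study's. All 10 genes are named, with up to 4 called genes a list, and the 3 genes most like each member. The script was tested on simulated data. Other filters, scalings, tests, probe set rules and each array left out were tried. The labels do not say that replicates came from separate animals, so p-values measure the spread between these arrays, which may be technical. The number of arrays limits the precision. Study numbers were joined to arrays by matching the supplementary columns to the deposited ones, and were used as a possible batch. The members, lists and tests were chosen with earlier results of these data known.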

Additional observations from a re-analysis of the deposited data

Results flagged for a closer look

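Of 40 groups of 4 arrays examined over the 20 probe sets (Sca-1Lo and Sca-1Neg, each probe set), 1 held an array far from the others: Sfrp4 in Sca-1Lo, where replicate 2 had a signal of 170.8 and its gap to the next array was 0.846 of the range of the group on the log2 scale. Chance alone would flag about 1 group in 20. Sfrp4 was called in no comparison with or without that array.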

How the results depend on the processing

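No call of a member turned its direction under any alternative. In UGE against Sca-1Neg cells 3 members were called, 1 by the methods' t-test and 7 against low study numbers only (chosen after seeing the data). Over all probe sets 10595, 4718 and 16224 were called in these settings. Against Sca-1Hi 4 were called, 1 by the t-test and 2 to 5 with an array left out (5 without Sca-1Neg replicate 3, with Axin2). Against Sca-1Lo 3 were called and 5 against low study numbers only, where 8993 and 12949 of all probe sets were called. Sca-1Hi against Sca-1Neg had 0, but 1 with the mean of all probe sets (Nkd1) and 1 within low study numbers (Sfrp2, lower, on 1 Sca-1Hi array of 98.1 that was taken to vary like the other groups). Sca-1Lo against Sca-1Neg had 0, but 1 with low or high study numbers as a block (Wif1) and 2 within low study numbers (Axin2 higher, Dkk2 lower). Over all probe sets 781, 1651 and 2956 were called in these settings. High against low study numbers (added after seeing the data) had 4, and 1 without Sca-1Lo. The cause was not tested.

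Of 19 pairs with the same replicate label, some with UGE, 11 deviated together with r over 0.1 (range -0.45 to 0.56). UGE arrays have no study number, and their pairs were pooled with the adult ones. The count therefore cannot decide whether adult arrays are paired, and the main fit used no pairing. Among the adult arrays a shared label meant a shared study number, except that Sca-1Hi replicate 2 has number 3. Sca-1Lo and Sca-1Neg replicate 2 have number 2. Pairs that share a study number were not examined apart from the others, and the main fit treats such arrays as independent. With the replicate labels as a block Sca-1Hi against Sca-1Neg had 1 call (Wif1, 1.97, adjusted p = 0.0342). No other count changed by over 1.5 times. Centring on the 75th percentile shifted UGE by -0.22 against Sca-1Neg, -0.16 against Sca-1Hi and -0.20 against Sca-1Lo (log2), turning only Dkk3 in UGE against Sca-1Hi and Sfrp4 in Sca-1Hi against Sca-1Neg, neither of them called. Dkk1 in UGE against Sca-1Hi lost its call with that centring (0.90, adjusted p = 0.0711). By the t-test Rnf43 and Sfrp1 lost their calls in UGE against Sca-1Neg and Dkk1 kept its call. By that test only Rnf43 was called in UGE against Sca-1Hi, and Rnf43 and Sfrp1 against Sca-1Lo, so Wif1 lost both of its calls. Signals near 20 limit the second Dkk1 and Axin2 probe sets.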
